A study of Mus musculus with 8 samples.

Results

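The genes described here are the Notch receptors *Notch1*, *Notch2*, *Notch3* and *Notch4*, the ligands *Dll1*, *Dll4*, *Jag1* and *Jag2*, and the target genes *Hey1* and *Hes1*. They were chosen by gene name, and all 10 of them were found among the 54532 genes of the deposited read count table. The counts came from RNAseq of mG+ (membrane GFP) cells sorted by FACS from female mice 8 months old. KO mice were *Tie2e-cre*; *TERTfl/fl*; *mTmG* and WT mice were *Tie2e-cre*; *TERT+/+*; *mTmG*, so that the WT mice also carried *Cre* and the reporter. *Cre* was driven by the *Tie2e* promoter, which is active in endothelial cells (EC), and recombined cells and their descendants carry mG. Cells were taken from inguinal fat (SAT) of mice on high-fat diet (HFD), from SAT of mice on chow, from gonadal fat (VAT) of mice on chow and from gastrocnemius muscle of mice on chow. Each of these 4 pairs had 1 WT and 1 KO library, 8 libraries in all. A KO over WT difference within a pair therefore had no replicate check. Pooling of mice was not stated.

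Notch signaling passes between neighboring cells. Ligands of the Delta-like and Jagged families on one cell bind Notch receptors on the next, which are then cut by ADAM proteases and gamma-secretase, and the freed intracellular domain enters the nucleus and joins the DNA-binding protein RBPJ to switch on targets such as the repressors *Hes1* and *Hey1*. In blood vessels *Dll4* and *Notch1* restrain sprouting and support arterial identity, *Notch4* is largely endothelial, and *Notch3* is the receptor of pericytes and smooth muscle cells. *Notch1* and *Notch2* are also used by lymphocytes and myeloid cells.

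Library totals ran from 6214269 to 18855772 counts. *Tert*, the targeted gene, had 114 (WT) and 0 (KO) counts in HFD SAT, 70 and 11 in chow SAT, and 24 and 7 in muscle. In VAT the counts were 3 (WT) and 9 (KO), an order opposite to the label. They correspond to 0.333 and 0.658 CPM (counts per 1000000, after TMM scaling). Their counting intervals overlapped (0.0687 to 0.973 and 0.301 to 1.25 CPM), so counts this low neither bear out nor contradict the labels. The second of these libraries is therefore called the VAT library labelled KO. The WT library of SAT on chow stood apart in *Malat1*, a nuclear long RNA, at 299 CPM. The other 7 libraries were at 2176 to 6005 CPM. All 19 endothelial markers, such as *Pecam1* and *Cdh5*, were above 3 counts in every library, and their summed level was 486 and 488 CPM in HFD SAT (WT and KO), 858 and 1096 in chow SAT, 3775 and 2874 in VAT, and 3302 and 4152 in muscle. Markers of other cells were present as well. In SAT the T cell markers summed to 2421 to 5016 CPM, the stromal markers to 992 to 3825 CPM and the B cell markers to 1655 to 2673 CPM. The macrophage markers summed to 13560 and 13375 CPM in VAT, and the neutrophil markers to 27726 and 32275 CPM in muscle.

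*Notch1* (ENSMUSG00000026923, chr2:26457903-26516663, GRCm38, minus strand) and *Notch2* (ENSMUSG00000027878, chr3:98013527-98150361, plus strand) are the receptors also used by blood cells. *Notch1* was at 175 and 226 CPM in HFD SAT (WT and KO), 163 and 256 in chow SAT, 449 and 321 in VAT, and 373 and 315 in muscle. *Notch2* was at 245 and 211 CPM in HFD SAT, 115 and 286 in chow SAT, 637 and 444 in VAT, and 393 and 310 in muscle. For both receptors the 4 SAT libraries lay below the 4 VAT and muscle libraries, and the WT library of SAT on chow was the lowest of all. A pair of gene records of unclear type lies within *Notch2* on the same strand, and the larger, *Gm42819*, held 2 to 256 counts, few beside the 1694 to 6395 counts of *Notch2*.

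*Notch3* (ENSMUSG00000038146, chr17:32120820-32166880, minus strand) had 14.9 and 18.4 CPM in HFD SAT (WT and KO), 11.4 and 36.8 in chow SAT, 26.6 and 121 in VAT, and 35.8 and 46.4 in muscle. The VAT library labelled KO was the highest, and the other 7 libraries did not separate by tissue. *Notch4* (ENSMUSG00000015468, chr17:34564268-34588503, plus strand) had 2.6 and 13.2 CPM in HFD SAT, 9.1 and 27.3 in chow SAT, 67.8 and 74.3 in VAT, and 54.5 and 83.6 in muscle. It spanned 32.1-fold from the WT library of SAT on HFD to the KO library of muscle, the widest range among the receptors.

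Of the ligands, *Dll4* (ENSMUSG00000027314, chr2:119325784-119335962, plus strand), the ligand of sprouting tip cells and arteries, had 9.25 and 16.1 CPM in HFD SAT (WT and KO), 8.23 and 14.9 in chow SAT, 53.0 and 37.3 in VAT, and 49.3 and 40.9 in muscle. *Jag1* (ENSMUSG00000027276, chr2:137081456-137116644, minus strand), the ligand through which EC instruct mural cells, had 14.6 and 23.9 CPM in HFD SAT, 9.28 and 28.1 in chow SAT, 49.7 and 51.4 in VAT, and 61.9 and 92.5 in muscle. In both ligands the highest SAT library was below the lowest library of VAT or muscle. *Jag2* (ENSMUSG00000002799, chr12:112907819-112929776, minus strand) had 6.65 and 10.2 CPM in HFD SAT, 10.5 and 25.7 in chow SAT, 52.5 and 39.0 in VAT, and 61.9 and 100 in muscle. *Dll1* (ENSMUSG00000014773, chr17:15367354-15376872, minus strand) was at 0.578 and 7.95 CPM in HFD SAT, 4.15 and 11.3 in chow SAT, 20.5 and 11.5 in VAT, and 19.8 and 33.8 in muscle. Its level in the WT library of SAT on HFD rested on 4 counts, close to the floor of 3 counts (0.434 CPM in that library), and its KO level in SAT on chow nearly met the VAT library labelled KO. Gene records on the opposite strand held at most 16 counts for *Notch1*, 27 for *Notch3*, 15 for *Dll1* and 29 for *Dll4* in any library, and the strand setting of the counting is not known.

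The targets differed from each other. *Hey1* (ENSMUSG00000040289, chr3:8663359-8667256, minus strand), a repressor active in arterial EC, had 3.47 and 2.93 CPM in HFD SAT (WT and KO), 11.9 and 7.63 in chow SAT, 21.8 and 19.9 in VAT, and 22.3 and 26.5 in muscle. Both HFD libraries were lowest, both SAT libraries on chow came next, and VAT and muscle were above. *Hes1* (ENSMUSG00000022528, chr16:30064384-30067796, plus strand), a repressor used in many cell types, had 18.2 and 19.3 CPM in HFD SAT, 49.0 and 25.8 in chow SAT, 48.5 and 48.7 in VAT, and 38.1 and 47.2 in muscle. Its highest library was the WT library of SAT on chow, the same library in which *Notch2* was lowest.

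**Figure D1:**
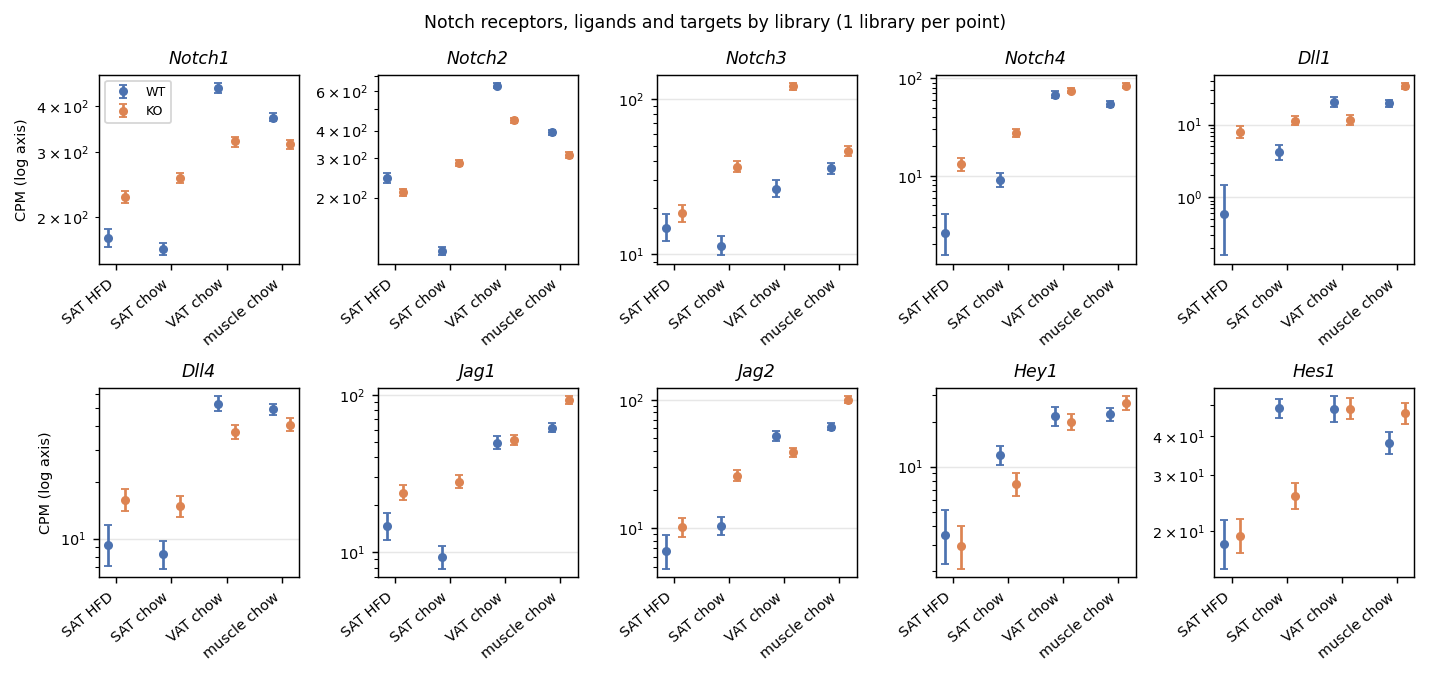
Level of each member in each library, in CPM on a log axis with its own range in every panel, for WT (blue) and KO (orange) of the 4 pairs, 1 library per point with its 95% counting interval (exact Clopper-Pearson). *Notch4* ran from 2.6 CPM in SAT on HFD to 83.6 CPM in muscle, and *Notch3* reached 121 CPM in the VAT library labelled KO.

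The clearest pattern was by tissue. In 8 of the 10 members, all but *Notch3* and *Hes1*, every SAT library was below every VAT and muscle library, an order found in 10.2% of the 16971 genes tested. This order contains the orders on chow, which are not separate results. On chow, these 8 members were higher in both VAT libraries than in both SAT libraries (26.6% of genes). The same 8 were higher in both muscle libraries than in both SAT libraries (20.7% of genes). No member had either reverse order (30% of genes for VAT and 23.5% for muscle). The median fitted log2 difference over the members was 1.47 for VAT over SAT, beside -0.13 over all genes, and 1.63 for muscle over SAT, beside -0.11. The size differed between the genotypes. For VAT over SAT the log2 ratio was 2.3 in WT and 0.02 in KO for *Dll1*, and 2.47 and 0.63 for *Notch2*. It was also larger in WT for *Notch1*, *Notch4*, *Dll4*, *Jag1* and *Jag2*, and larger in KO for *Notch3*, *Hey1* and *Hes1*. For muscle over SAT only *Hey1* and *Hes1* were larger in KO, and *Notch2* was at 1.77 in WT and 0.12 in KO. These WT ratios use the WT library of SAT on chow, the one apart in *Malat1*. Without the WT library of SAT on chow, 9 of 10 members had the order, *Hes1* being added (14.9% of genes), and without the VAT pair 8 of 10 had it (16.8%).

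The fit across all 8 libraries (edgeR quasi-likelihood, Benjamini-Hochberg adjustment over all genes tested, threshold 0.05) called 0 members in either tissue comparison. It called 3.13% of genes higher and 1.87% lower in VAT than in SAT, and 1.1% higher and 0.165% lower in muscle than in SAT. Several members came near the threshold. *Dll4* was higher in VAT than in SAT by 2.01 on the log2 scale (SE 0.468, edgeR adjusted p = 0.0518), *Notch4* by 2.22 (SE 0.53, adjusted p = 0.0563) and *Jag1* by 1.61 (SE 0.421, adjusted p = 0.0733). In muscle against SAT, *Jag1* was higher by 2.16 (SE 0.424, edgeR adjusted p = 0.0592), *Jag2* by 2.21 (SE 0.45, adjusted p = 0.0658) and *Dll4* by 2.0 (SE 0.466, adjusted p = 0.0993). At an unadjusted p under 0.05 there were 8 members (3517 genes) for VAT over SAT and 5 members (1957 genes) for muscle over SAT. Of the 16971 genes, the DESeq2 Wald test called 2307 for VAT against SAT, 7 members among them. For muscle against SAT it called 1063 genes, 4 members among them. The called members were all higher than in SAT.

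**Figure D2:**
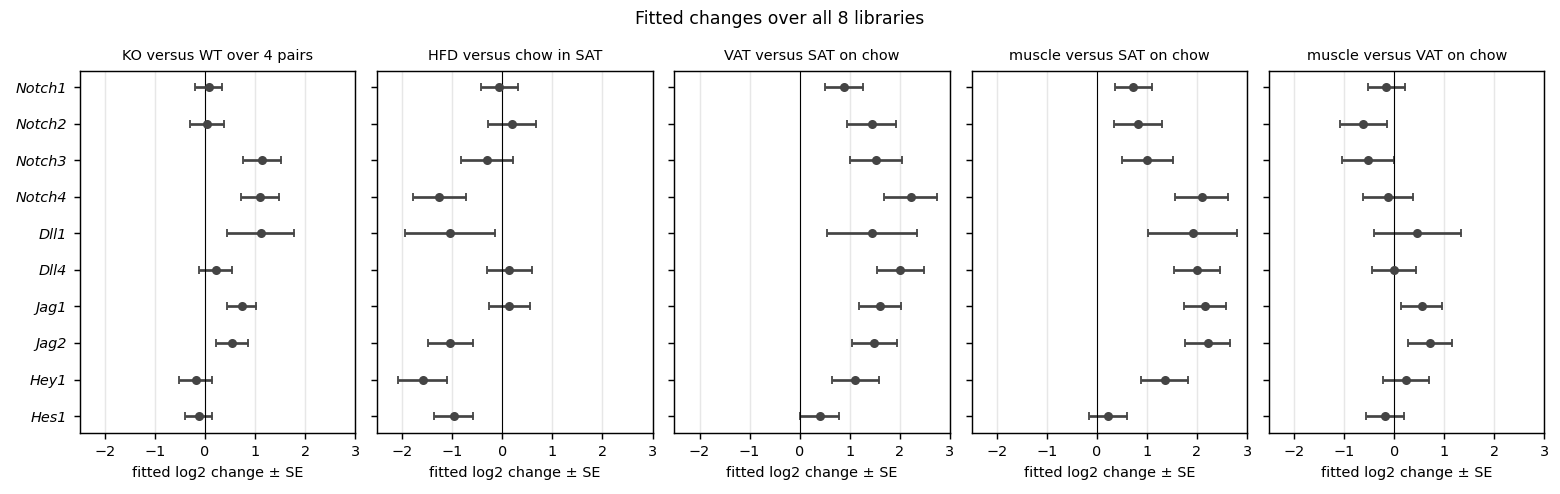
Fitted log2 change (x axis) of each member with its SE in the 5 comparisons of the fit over 8 libraries. The members lie to the right in VAT and muscle against SAT, up to 2.22 for *Notch4*, and no member passed the adjusted threshold in any panel.

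The order by tissue held in CPM and not after scaling to the endothelial markers. The summed endothelial markers were 486 to 1096 CPM in SAT and 2874 to 4152 CPM in VAT and muscle, all 19 markers being above 3 counts throughout. With each member divided by that sum, 0 of 10 members had every SAT library below every other library (0.407% of genes). Dividing by a sum that was lower in SAT raised every gene there against VAT and muscle, so this loss is not particular to the members. *Dll4* was then at 9.59 to 33.1 CPM per 1000 CPM of endothelial markers in SAT and at 9.85 to 14.9 in VAT and muscle, and the ranges overlapped. *Notch1* turned over, at 190 to 464 in SAT and 75.9 to 119 in VAT and muscle. *Hes1*, whose SAT libraries overlapped the others in CPM, was above them in SAT on this scale, at 23.5 to 57 against 11.4 to 17 elsewhere. *Notch4* was at 5.35 and 10.6 in the WT libraries of SAT, at 27.1 and 25 in their KO libraries and at 16.5 to 25.9 elsewhere, so that the SAT libraries lay on both sides of the others or among them. The macrophage markers were also lower in SAT, at 407 to 2128 CPM against 5315 to 13560 CPM in VAT and muscle. The part of cell make-up in the tissue differences was not tested. In sorted bulk cells, fewer cells of a type and less RNA per cell cannot be told apart.

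**Figure D3:**
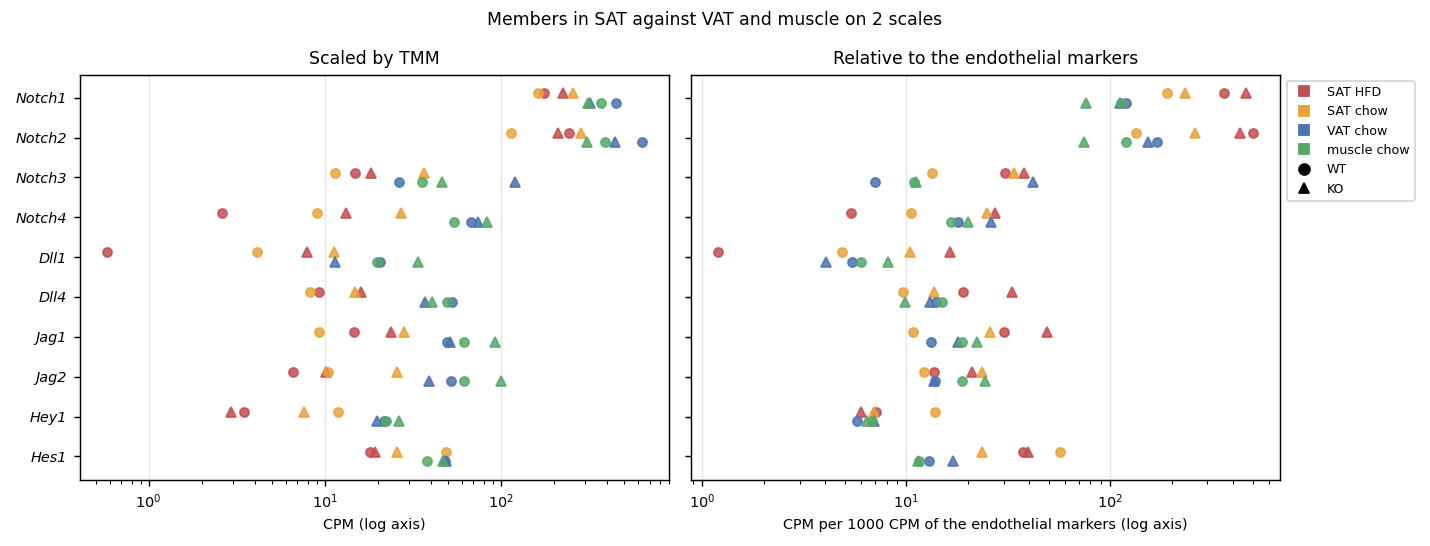
Each member in the 8 libraries as CPM (left) and as CPM per 1000 CPM of summed endothelial markers (right), both on log axes, with SAT drawn just above VAT and muscle, circles for WT and triangles for KO. On the left the SAT points of 8 members sit below all VAT and muscle points, and on the right none do, with *Notch1* at 190 to 464 in SAT against 75.9 to 119 elsewhere.

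*Notch4* and *Dll4* had the largest fitted differences between VAT and SAT, and the sequence before their start is printed for that reason. RefSeq promoter records (GRCm38.p6, the build of the count table) were given for 8 of the 10 members. *Hey1* and *Hes1* were not matched. The 250 bases before the RefSeq start were searched on both strands for TGGGAA, the core bound by RBPJ, for CACGCG, a site of the Hes and Hey repressors, and for AGGAAG, which holds the ETS core of endothelial regulators. The matches in capitals overlap no match of another motif searched. The lines give *Notch4* at chr17:34564045-34564267 (plus strand, AGGAAG and its reverse complement in capitals), ending where the gene record begins, and *Dll4* at chr2:119325534-119325783 (plus strand, CACGCG in capitals).

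Notch4: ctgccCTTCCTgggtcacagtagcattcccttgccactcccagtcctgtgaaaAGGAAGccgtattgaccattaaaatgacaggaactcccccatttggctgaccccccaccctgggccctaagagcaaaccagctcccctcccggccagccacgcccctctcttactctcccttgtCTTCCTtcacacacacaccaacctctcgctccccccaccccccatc

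Dll4: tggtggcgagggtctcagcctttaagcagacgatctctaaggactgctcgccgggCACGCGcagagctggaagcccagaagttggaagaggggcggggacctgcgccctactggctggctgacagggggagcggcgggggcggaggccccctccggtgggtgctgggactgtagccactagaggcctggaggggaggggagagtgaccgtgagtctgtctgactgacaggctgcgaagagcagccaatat

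*Notch4* held AGGAAG at 3 places, -245, -197 and -73 from the RefSeq start, where 29.5% of 32851 promoter records held it at least once. *Dll1* was the only other matched member with AGGAAG, once, in 1 of its records. CACGCG was found in *Dll4* (at -195), in *Jag1* (at -249 and -171), in *Notch2* (at -42) and in 1 of the *Dll1* records (at -68), beside 7.62% of all records. TGGGAA was found in 0 of the 8 members and in 21.6% of all records. These matches describe letters in a short window only.

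HFD against chow in SAT addressed diet. In 3 of the 10 members, *Hey1*, *Hes1* and *Jag2*, both HFD libraries were below both chow libraries, near the 26.6% of all genes. For *Jag2* the margin was 10.2 CPM (KO on HFD) against 10.5 CPM (WT on chow). In 0 members were both HFD libraries above (7% of genes). The log2 ratio of HFD to chow for *Hey1* was -1.76 in WT (95% counting interval -2.45 to -1.16) and -1.37 in KO (-1.94 to -0.84). For *Hes1* it was -1.42 in WT (-1.71 to -1.15) and -0.42 in KO (-0.65 to -0.19). The fit called 0 members, and 0% of genes were called higher and 0% lower. The fitted log2 change was -1.59 for *Hey1* (SE 0.488, edgeR adjusted p = 0.49), -1.26 for *Notch4* (SE 0.525, adjusted p = 0.523) and -0.97 for *Hes1* (SE 0.393, adjusted p = 0.523). *Hes1* was at -0.24 without the WT library of SAT on chow, *Notch4* at -0.55 without the WT library of SAT on HFD and at -2.27 without its KO library, and *Hey1* at -1.12 to -1.88 with any library left out. At an unadjusted p under 0.05 there were 4 members and 1577 genes, and the DESeq2 Wald test called 0 members and 260 genes. *Notch2*, *Notch3* and *Jag1* were higher on HFD in WT (log2 1.09, 0.38 and 0.65) and lower in KO (-0.44, -1.0 and -0.23). The WT library of SAT on chow, the base of these WT ratios, was the lowest library for each of these genes. Without it the fitted log2 change went from 0.2 to -0.35 for *Notch2* and from 0.14 to -0.2 for *Jag1*. Endothelial markers were also lower on HFD, at 486 and 488 CPM against 858 and 1096. Per endothelial marker, the log2 ratio of *Hes1* was -0.61 in WT and 0.75 in KO. That of *Hey1* was -0.95 in WT and -0.21 in KO, and that of *Jag2* was 0.17 and -0.17.

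Between muscle and VAT the members were mixed. *Jag1*, *Jag2* and *Hey1* were higher in both muscle libraries than in both VAT libraries (33.4% of genes), *Notch2* and *Hes1* were lower in both (28.6%), and the other 5 members overlapped. The largest fitted difference was 0.72 for *Jag2* (SE 0.435, edgeR adjusted p = 0.615), which the 2 genotypes did not share in size, at 0.24 in WT and 1.36 in KO, and which ranged from 0.07 to 1.44 without one or the other VAT library. The fit called 0 members, beside 0.99% of genes higher and 1.03% lower, with 0 members and 2171 genes at an unadjusted p under 0.05 and 0 members by the DESeq2 Wald test. *Notch4*, at 67.8 and 74.3 CPM in VAT and 54.5 and 83.6 in muscle, and *Dll4*, at 53.0 and 37.3 against 49.3 and 40.9, were not told apart between these tissues beyond the spread of their libraries.

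KO over WT was examined over the 4 pairs together and in each pair. *Notch3*, *Notch4* and *Jag1* were higher in KO in 4 of 4 pairs, a direction shared by 5.26% of genes, and each had a 95% counting interval above 0 in 3 of the 4. This count takes the labels of the VAT pair as given, where *Notch4* and *Jag1* had log2 ratios of only 0.13 and 0.05, with intervals across 0. Without that pair, *Dll1* and *Jag2* were higher in KO in every pair as well, 5 members in all (11.7% of genes). None of them passed the fit, which called 0 members and 0.00589% of genes in either direction. The fitted log2 change was 1.14 for *Notch3* (SE 0.375), 1.10 for *Notch4* (SE 0.375) and 0.73 for *Jag1* (SE 0.294), each with an edgeR adjusted p = 1. There were 3 members and 277 genes at an unadjusted p under 0.05, and the DESeq2 Wald test called 0 members and 19 genes. The other members were between -0.19 (*Hey1*, SE 0.334) and 1.11 (*Dll1*, SE 0.675). With 1 library left out at a time, *Dll1* ranged from 0.47 (without the KO library of SAT on HFD) to 1.84 (without the VAT library labelled WT), and *Jag1* from 0.44 (without the WT library of SAT on chow) to 0.98 (without the VAT library labelled WT). *Notch3* ranged from 0.81 to 1.43 and *Notch4* from 0.77 to 1.49, and *Notch1*, *Notch2*, *Dll4* and *Hes1* took both signs. The median over the members was 0.38, beside 0.03 over all genes.

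In SAT on HFD the ligands and 2 of the receptors were higher in the KO library. The interval was above 0 in 6 members (39.4% of genes), below 0 in 1 (33.2% of genes) and across 0 in 3. *Dll1* went from 4 to 103 counts, a log2 ratio of 3.67 (95% counting interval 2.38 to 5.68), and *Notch4* from 18 to 171 counts, a log2 ratio of 2.32 (1.64 to 3.13). *Dll4*, *Jag1* and *Jag2* had log2 ratios of 0.80 (0.39 to 1.23), 0.71 (0.38 to 1.05) and 0.61 (0.12 to 1.13). *Notch1* was at 0.37, *Notch2* at -0.21, and the intervals of *Notch3*, *Hey1* and *Hes1* spanned 0. The endothelial sum was nearly the same in both libraries (486 and 488 CPM), as was the mural sum (150 and 153 CPM). Other sums differed. The arterial endothelial sum was higher in the KO library, at 25 CPM, than in the WT library. Of its 7 markers, 5 were above 3 counts in KO and 3 in WT. The macrophage sum was 691 CPM in WT and 407 CPM in KO. The part of these cells was not tested. With endothelial scaling the counts above, below and across 0 were again 6, 1 and 3.

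In SAT on chow the receptors and ligands stood opposite the targets. All 8 receptors and ligands had an interval above 0 (41.1% of genes) and both targets had one below 0 (40.2% of genes). *Notch3* had the largest log2 ratio, 1.68 (1.45 to 1.93), followed by *Jag1* at 1.59 (1.33 to 1.87) and *Notch4* at 1.58 (1.32 to 1.87). *Hes1* was 1.9-fold lower in KO, at -0.92 (-1.10 to -0.75), and *Hey1* was at -0.64 (-0.98 to -0.31). The WT library of this pair is the one apart in *Malat1*, and its ratios moved with gene length: with the median ratio of genes of like length removed, *Notch1* went from 0.65 to -0.56, *Notch2* from 1.31 to 0.52, *Hey1* from -0.64 to -0.39 and *Hes1* from -0.92 to -0.64. Mural markers summed to 70.9 CPM in WT and 229 in KO (10 and 12 of 12 above 3 counts), stromal markers to 992 and 3825, and T cell markers to 5016 and 2421. Their part in these ratios was not tested.

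In VAT one receptor stood out. *Notch3* had 240 counts in the library labelled WT and 1653 in the library labelled KO, a log2 ratio of 2.18 (1.98 to 2.38) or 4.53-fold, and it was the only member of 10 with an interval above 0 (26.6% of genes). Mural markers were at 202 and 693 CPM in the same libraries (11 and 12 of 12 above 3 counts) and stromal markers at 1401 and 2687, and their part was not tested. The interval was below 0 in 5 members (24.7% of genes), with *Dll1* at -0.83 (-1.15 to -0.52), *Notch2* at -0.52, *Dll4* at -0.50, *Notch1* at -0.49 and *Jag2* at -0.43. *Notch4*, *Jag1*, *Hey1* and *Hes1* spanned 0. The endothelial sum was 3775 and 2874 CPM, and with endothelial scaling 4 members were above 0, 3 below and 3 across, *Notch4* going from 0.13 to 0.52. As the *Tert* counts were too few to bear out the labels, the direction in this pair holds for the labels only.

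In muscle 7 members had an interval above 0 (27.1% of genes) and 3 below (28.9% of genes). *Dll1* was at 0.77 (0.57 to 0.99), *Jag2* at 0.70 (0.58 to 0.81), *Notch4* at 0.62 (0.49 to 0.75) and *Jag1* at 0.58 (0.46 to 0.70). *Notch1*, *Notch2* and *Dll4* were at -0.24, -0.34 and -0.27. Endothelial markers were also higher in the KO library (3302 and 4152 CPM), as were mural markers (215 and 411 CPM) and stromal markers (847 and 1573 CPM). Dendritic cell markers were lower there (1724 and 667 CPM), and macrophage markers were close (5534 and 5315 CPM). The part of these cells was not tested. With endothelial scaling 4 members were above 0, 3 below and 3 across, *Hey1* going from 0.25 to -0.08 and *Hes1* from 0.31 to -0.02, while *Notch4* stayed above 0 at 0.29 (0.16 to 0.42).

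**Figure D4:**
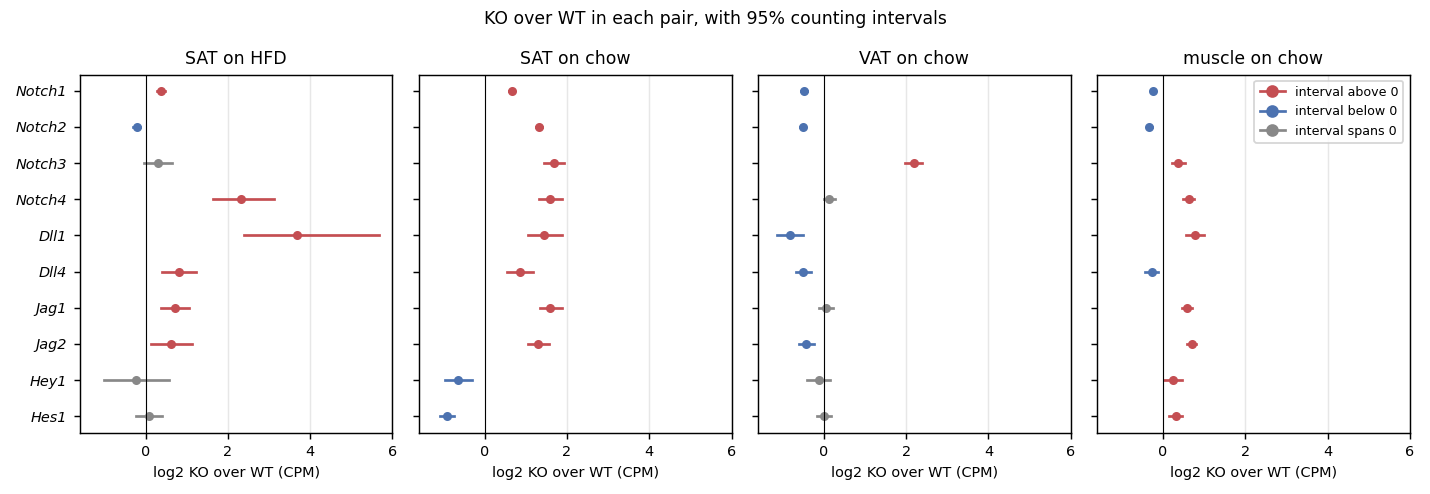
Log2 ratio of KO to WT CPM of each member in the 4 pairs (x axis), with bars for the 95% counting interval, red above 0, blue below 0 and gray across 0. In SAT on chow all 8 receptors and ligands are red and both targets are blue, and in VAT only *Notch3*, at 2.18, is red.

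Per gene length, as CPM per kilobase, the members could be compared with each other. *Notch2* was at 10.7 to 59.1 CPM per kilobase over the 8 libraries, *Notch1* at 11.5 to 31.6 and *Hes1* at 8.94 to 24.0, and *Hes1* was above both receptors in the WT library of SAT on chow. The ligand *Dll1* ran from 0.137 to 8.02. *Notch2* made up 42.9% to 61.1% of receptor reads per length and was the most abundant receptor in 7 of 8 libraries. The exception was the WT library of SAT on chow, where *Notch1* had 46.5% and *Notch2* 43.2%. *Notch4* made up 0.868% in the WT library of SAT on HFD and 15.5% in the KO library of muscle, and *Notch3* 3.24% to 17.1%, both ends in VAT. Among the ligands, *Dll4* was the most abundant per length in 5 libraries (21.7% to 40% over all 8) and *Jag1* in 3 (24.6% to 41.8%). *Dll1* was lowest among the ligands in 7 libraries, the exception being the KO library of SAT on HFD, where *Jag2* had 12.6% and *Dll1* 16.2%. The length is that of the deposited table, 14232 bases for *Notch1* and 10782 for *Notch2*, and the order of this pair of receptors leans on it: by counts alone *Notch1* was ahead in 3 libraries and *Notch2* in 5.

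**Figure D5:**
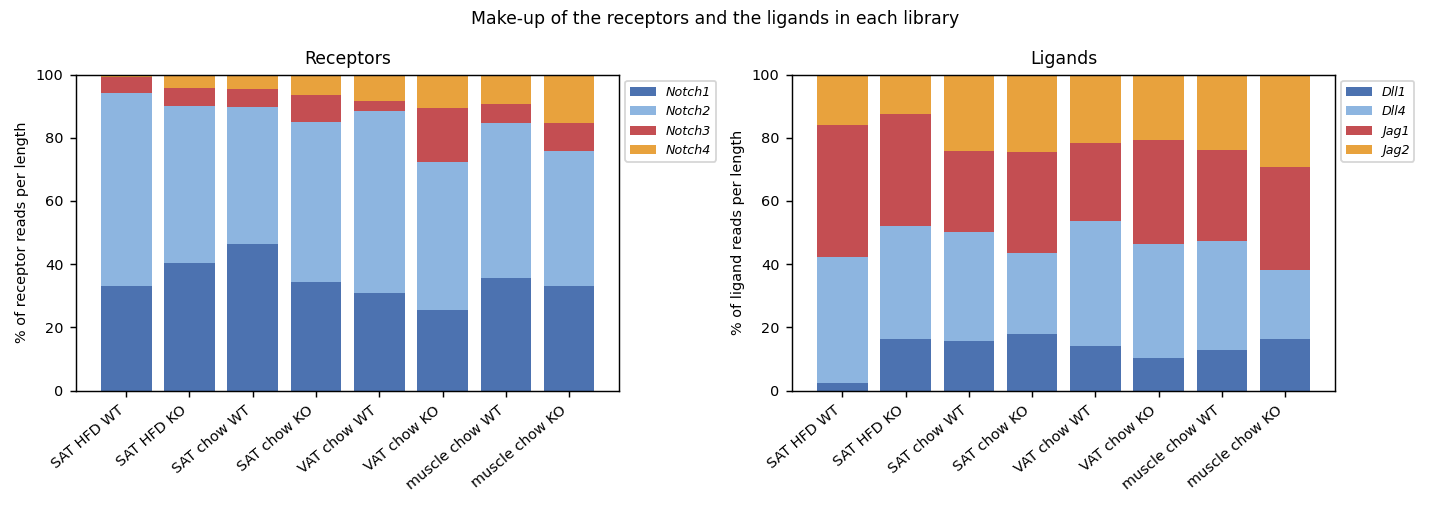
Share of each gene in the receptor reads (left) and ligand reads (right) of each library, in percent after division by gene length, from 0 to 100. *Notch2* fills the largest part of the receptor bars in 7 of 8 libraries, and *Notch4* widens from 0.868% in the WT library of SAT on HFD to 15.5% in the KO library of muscle.

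With 12368 genes averaging 50 counts or more, the genes with profiles most like a member over the 8 libraries were found by the root mean square (RMS) difference of centered log2 CPM. For *Notch4* these were *Fam198b* (0.133), *Uaca* (0.298) and *Tek* (0.34), the last being the endothelial angiopoietin receptor, against an RMS of 1.67 for the profile of *Notch4* itself. For *Hey1* they were *Pdgfb* (0.263), a growth factor that EC release to recruit mural cells, *Bcam* (0.274) and *Tbc1d8* (0.279). For *Dll4* they were *Selenon* (0.256), *Ets2* (0.273) and *Zfp516* (0.28). *Notch1* was most like *Myo1c* (0.127), *Soat1* (0.135) and *Col4a3bp* (0.14), and *Hes1* most like *Rbbp9* (0.141), *Stau2* (0.153) and *Akt1* (0.153). The likeness is a description over libraries that differ in cell make-up and depth.

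The wider pathway held 71 other genes, of which 64 were tested. In VAT against SAT 2 of the 64 were called higher and 1 lower, shares close to the 3.13% and 1.87% over all genes. In muscle against VAT 1 was called higher and 2 lower, beside 0.99% and 1.03% over all genes. *Rbpj*, the DNA-binding partner of the cut receptor, was at 106 and 75.8 CPM in HFD SAT (WT and KO), 83.7 and 121 in chow SAT, 584 and 531 in VAT, and 146 and 107 in muscle. It was higher in VAT than in SAT by 2.43 on the log2 scale (SE 0.365, edgeR adjusted p = 0.0136) and lower in muscle than in VAT, at -2.15 (SE 0.361, adjusted p = 0.03). *Cd44*, an adhesion receptor listed among Notch targets, was higher in VAT than in SAT by 2.03 (SE 0.407, edgeR adjusted p = 0.0327). *Dtx1*, a regulator of Notch that lymphocytes express, was at 111 and 102 CPM in HFD SAT, 210 and 96.5 in chow SAT, 11.7 and 9.35 in VAT, and 52.5 and 38.4 in muscle. It was lower in VAT than in SAT, at -3.80 (SE 0.371, edgeR adjusted p = 0.00468), and higher in muscle than in VAT by 2.10 (SE 0.347, adjusted p = 0.0284). *Gata3*, a T cell and innate lymphoid regulator, was lower in muscle than in VAT, at -2.29 (SE 0.348, edgeR adjusted p = 0.0195). T cell markers summed to 2421 to 5016 CPM in SAT, 331 and 407 in VAT, and 1073 and 747 in muscle. *Dtx1* was lowest in VAT, as these sums were, while *Gata3* was highest there, at 84.6 and 102 CPM. Macrophage markers summed to 407 to 2128 CPM in SAT, 13560 and 13375 in VAT, and 5534 and 5315 in muscle. *Rbpj* and *Cd44* were higher in VAT than in SAT. In muscle *Rbpj* (146 and 107 CPM) was near its SAT levels (75.8 to 121 CPM). *Cd44* in muscle (579 and 386 CPM) lay between its levels in SAT (150 to 260 CPM) and VAT (901 and 870 CPM). The part of these cells was not tested.

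For muscle against SAT, HFD against chow and KO against WT, 0 of the 64 were called. The medians of the 64 were 0.28 for VAT against SAT and 0.04 for muscle against SAT, beside 1.47 and 1.63 for the members. Of the other targets in the pathway list, 9 of 14 were tested. *Hey2*, *Hes5*, *Hes2*, *Hes3* and *Hes7* were at or below 5.41 CPM in every library, and *Heyl* was at 0 to 11.8 CPM. The fringe glycosyltransferases *Lfng* and *Mfng*, which tune receptors to Delta-like ligands, were at 40.1 to 226 CPM and 34.8 to 108 CPM, with none of the 5 genes of that list called in any comparison.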

How the data were processed

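Deposited values were whole-number read counts per Ensembl gene, with no normalization, in 8 libraries. Per the labels, RNA was isolated on columns and libraries were made with a SMARTER mRNA kit, while the study's methods name Trizol. The submitters' processing notes name HISAT2 2.0.5 and GRCm38. The counting program, read length and use of strand are not given in the sources used here, so reads of overlapping genes could be shared. The gene length deposited by the authors has the unit of bases. The members and gene lists were chosen with earlier results of these data known.

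Libraries were scaled by edgeR TMM over all genes. The 16971 genes averaging 10 counts or more were fitted with the edgeR quasi-likelihood test (edgeR 4.0.16, R 4.3.3), with tissue and diet plus genotype as terms, Benjamini-Hochberg adjustment and a threshold of 0.05. The SE is the log2 change over the root of the F statistic. With 1 library per tissue, diet and genotype, the residual spread comes from the failure of the 4 pairs to move in parallel, and all p-values measure only the spread between these samples. In each pair, log2 ratios of CPM used a prior count of 0.5 and an exact conditional binomial 95% interval, which covers counting error only, without a test. Reads carried no molecular identifiers. The tests were tried on simulated data first. DESeq2 1.42.0 was an alternative, with others under the closing section. Figures were drawn with matplotlib 3.10.9. Named genes were all members, up to 3 called pathway genes each way per comparison, and the 3 most alike genes of 5 members. *Notch3* differs in coordinates from GENCODE M21, and the other 9 members match it.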

Additional observations from a re-analysis of the deposited data

Results flagged for a closer look

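The KO over WT log2 ratio had intervals on both sides of 0 in different pairs for 7 of the 10 members, and the difference between pairs was not tested. The share of all genes with intervals on both sides was not counted. Within single pairs, 24.7% to 41.1% of genes lay on a given side of 0, so the count cannot be read as a trait of these members. *Notch1* ranged from -0.49 in VAT to 0.65 in SAT on chow, and *Notch2* from -0.52 in VAT to 1.31 in SAT on chow. *Dll1* ranged from -0.83 in VAT to 3.67 in SAT on HFD, *Dll4* from -0.50 in VAT to 0.85 in SAT on chow, and *Jag2* from -0.43 in VAT to 1.30 in SAT on chow. The targets went the other way in SAT on chow, *Hey1* from -0.64 there to 0.25 in muscle and *Hes1* from -0.92 there to 0.31 in muscle. The VAT pair, lowest in the 5 receptors and ligands, is the one whose *Tert* counts were too few to bear out its labels. The WT library of SAT on chow is the one apart in *Malat1*. The part of either in these ranges was not tested.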

How the results depend on the processing

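By replicate number, no paired analysis was possible because each group held 1 library, numbered 1. The KO fit took the tissue and diet of each WT and KO pair as its block, and without it 0 members were called. Members called stayed at 0 for KO against WT, HFD against chow and muscle against VAT under each alternative run, leaving out each library or pair included (0 to 0). For VAT against SAT the count of 0 became 2 with DESeq2 size factors, 1 with TMM over the tested genes (chosen after seeing the data), 6 without the filter on low counts, 7 with the DESeq2 Wald test and 1 without the genotype term, and 0 to 6 with a library left out. It was 6 without the KO library of SAT on chow, 2 without the WT library and 1 without the KO library of SAT on HFD. For muscle against SAT it became 4 without the filter and 4 with the DESeq2 Wald test, and 0 to 4 with a library left out, 4 without the KO library of SAT on chow and 1 without either VAT library. The cause was not tested. Genes called over the whole table went from 849 to 2307 (DESeq2 Wald) for VAT against SAT, from 215 to 1063 for muscle against SAT, from 343 to 1255 for muscle against VAT, from 0 to 260 for HFD against chow, and from 1 to 19 for KO against WT. Without the filter they were 2100, 971, 1159, 317 and 42. Without the genotype term they were 1150, 338, 539 and 0, in the same order and leaving out KO against WT. With a library left out they ranged from 108 to 3510, 39 to 1771, 39 to 1264, 0 to 441 and 0 to 2, the highest values for VAT and muscle against SAT and for HFD against chow coming without the KO library of SAT on chow.

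In the pairs, *Notch1* in SAT on chow reversed to -0.56 with the length trend removed, and in muscle *Hey1* and *Hes1* reversed to -0.08 and -0.02 with endothelial scaling. *Dll4* was the most abundant ligand in 1 library by counts, against 5 per length, since its length is the shortest of the ligands. Members with SAT below all other tissues went from 8 to 0 with endothelial scaling, and members higher in KO in every pair from 3 to 5 without the VAT pair, where only 3 pairs remain. These 2 counts were rerun after seeing the data. Depth limits *Dll1*, *Notch4* and *Hey1* in the WT library of SAT on HFD, at 4, 18 and 24 counts.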
